A study of Mus with 18 samples.

Results

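The genes described here encode 10 integrin subunits of leukocytes and muscle cells: the alpha subunits Itgam, Itgal, Itga4, Itga5, Itga6, Itga7 and Itgav and the beta subunits Itgb1, Itgb2 and Itgb3. They were chosen by gene symbol, and all 10 were found among the 21401 symbols of each of 2 expression tables, one of C2C12 cells and one of mouse gastrocnemius muscle. C2C12 is a mouse myoblast line, whose cells are precursors of muscle fibres. LPS (lipopolysaccharide) is a component of the bacterial cell wall that triggers inflammation, and MIC-1 is moringa isothiocyanate-1, a compound from moringa seeds. The wild type C2C12 samples were labelled control (saline vehicle), LPS (1 μg/mL) and LPS-MIC-1 (1 μg/mL LPS with MIC-1 for 24 h), with 3 libraries in each group. The labels give 10 μM MIC-1 in cells, whereas the text of the study names a lower concentration for this experiment. Muscle came from wild type male C57BL/6 mice that received saline vehicle, LPS (10 mg/kg, intraperitoneal) or LPS after 3 days of daily oral MIC-1 (80 mg/kg in 10% DMSO), also with 3 libraries in each group, and was taken 16 h after LPS. The labels name saline as the vehicle of both control groups, whereas the text of the study names ethanol for cells and DMSO for mice. The age of the mice was not given, and the sources used here do not say whether the C2C12 libraries came from separate cultures or whether each muscle library is 1 mouse, so p-values measure only the spread between libraries.

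Integrins are receptors at the cell surface made of 1 alpha and 1 beta subunit, which bind matrix proteins or partner receptors on other cells and link them to the actin cytoskeleton. The beta2 integrins, with Itgb2 joined to Itgal (LFA-1) or Itgam (Mac-1), belong to leukocytes and bind intercellular adhesion molecules. Itgb1 pairs with many alpha subunits, among them Itga4 (VCAM-1 and fibronectin), Itga5 (fibronectin) and the laminin receptors Itga6 and Itga7, and the Itga7 and Itgb1 pair anchors muscle fibres to the surrounding laminin. Itgav joins Itgb1, Itgb3, Itgb5 or Itgb6 to bind vitronectin, fibronectin and osteopontin.

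Values are FPKM, fragments counted per transcript length and sequencing depth, so levels can be compared between genes within a table. The 2 tables were normalized separately. Over genes with a mean FPKM over 1 in a table, the correlation between replicates was 0.982 to 0.989 in C2C12 control and LPS. It was 0.936 to 0.951 in C2C12 LPS-MIC-1 and 0.949 to 0.962 in muscle. An exact 0 may be a failed estimate, since the ubiquitous gene Ywhaz was listed at 0 in 2 muscle libraries. Fermt2 and Fn1, which muscle tissue uses widely, were listed at 0 in all 9 muscle libraries. Such values are given as "listed at 0", library by library.

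In the C2C12 table, 6 of the 9 libraries did not carry the markers of the labelled cell type. Summed over the 11 of 12 macrophage markers that were matched, the level was 8605 to 8709 FPKM in the 3 control libraries, 5583 to 5703 in the 3 LPS libraries and 77.8 to 234 in the 3 LPS-MIC-1 libraries. The 9 myoblast markers summed to 711 to 919 FPKM in the LPS-MIC-1 libraries, whereas they reached only 0.187 to 0.430 in control and 0.322 to 2.09 in LPS. The macrophage enzyme gene Lyz2 was at 4723, 4598 and 4761 FPKM in control, whereas the myogenic regulator Myod1 was listed at 0 in 2 of the 3 control and 2 of the 3 LPS libraries. In LPS-MIC-1, Myod1 was at 56.7, 49.5 and 55.7 FPKM. The libraries labelled C2C12 control and LPS thus carried macrophage markers and lacked myoblast markers, whereas those labelled LPS-MIC-1 carried myoblast markers, so in the C2C12 table the cell identity cannot be told apart from the MIC-1 treatment. The muscle libraries carried the markers of their tissue, with 1694 to 1942 FPKM summed over the 9 myoblast markers and no muscle fibre marker listed at 0. C2C12 LPS-MIC-1 replicate 1 and muscle LPS-MIC-1 replicate 3 stood apart from the other libraries of their groups in macrophage genes. Fold changes of Itgam and Itga4 that rest on them are given with and without them.

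For the comparisons, log2(FPKM + 0.1) was fitted with limma for all genes with a mean FPKM over 1 across the 9 libraries of a table. A gene was called higher or lower when its absolute log2 fold change was over 1 and its Benjamini-Hochberg adjusted p was under 0.001 in C2C12 or 0.05 in muscle. Of the 10 integrin genes, 8 passed the filter in C2C12 (all but Itgal and Itgb3). In the comparison of LPS with control, 3 of these 8 were called, 2 higher (Itga5, Itgav) and 1 lower (Itga4), against 20.9% of all 10877 genes tested (10.9% higher and 10% lower). In LPS-MIC-1 compared with LPS, 7 of the 8 were called, 3 higher (Itga6, Itga7, Itgb1) and 4 lower (Itgam, Itgb2, Itga4, Itgav), against 49.9% of all genes (24.3% higher and 25.6% lower). Compared with control, all 8 tested were called, 4 higher (Itga5, Itga6, Itga7, Itgb1) and 4 lower (Itgam, Itgb2, Itga4, Itgav), against 43.3% of all genes (21.1% higher and 22.1% lower). By adjusted p alone, 3, 8 and 8 of the 8 passed in the 3 comparisons, against 37.8%, 66.5% and 60.5% of all genes. The libraries of the 2 groups did not overlap for 7, 8 and 8 of the 8, against 79.4%, 85.5% and 83% of all genes, so separate groups were common in this table. The 3 comparisons share libraries and are not independent of each other. Itga6 and Itga7 passed the filter mainly through their level in LPS-MIC-1, so the counts are descriptions. A fit without the filter kept every gene with a value above 0 in at least 3 libraries. There, 4, 8 and 9 of the 10 were called, against 15.8%, 43.9% and 39.4% of 15296 genes. The median log2 fold change of the 8 genes was 0.58, -2.04 and 0.12 in the same order of comparisons, beside 0, -0.047 and -0.060 over all genes tested.

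**Figure D1:**
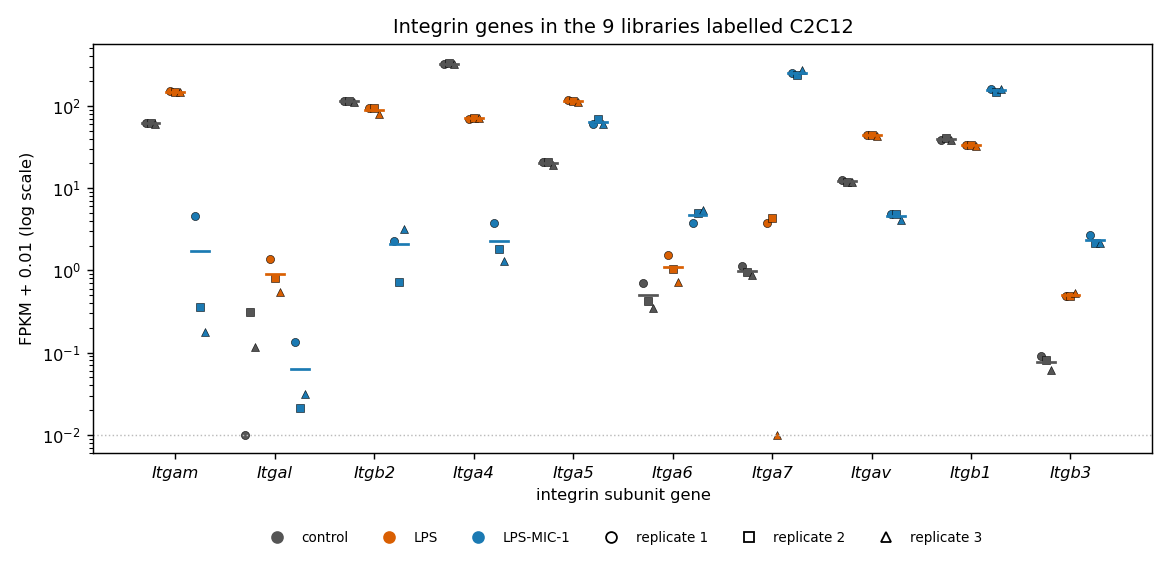
FPKM + 0.01 on a log scale for the 10 integrin genes in the 9 libraries labelled C2C12, with points for libraries coloured by group and shaped by replicate, bars for group means (left out where a library is listed at 0) and a dotted line at a listed 0. Itgam, Itgb2 and Itga4 are high in control and LPS and low in LPS-MIC-1, whereas Itga7 and Itgb1 are highest in LPS-MIC-1.

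Itgam, the alpha subunit of Mac-1, was at 61.8, 62.3 and 60.3 FPKM in the C2C12 control libraries, at 151, 149 and 147 in LPS and at 4.62, 0.352 and 0.167 under LPS-MIC-1. The 3 groups did not overlap, with LPS highest and LPS-MIC-1 lowest, and replicate 1 of LPS-MIC-1 lay far above its 2 companions. The log2 fold change was -7.49 (SE 0.912, adjusted p = 7.94e-05) in LPS-MIC-1 relative to LPS. Against control it was -6.21 (adjusted p = 0.000286), a call that was lost without any one control library or LPS-MIC-1 replicate 2 (adjusted p from 0.00152 to 0.00157) or with only these 6 libraries fitted (0.00219). Over 20 alternatives its adjusted p ranged from 4.54e-08 to 0.00219. Between LPS and control it was 1.28 (SE 0.912, adjusted p = 0.259), which was not called. That standard error is shared by all 9 libraries and was widened by the spread within LPS-MIC-1. Without LPS-MIC-1 replicate 1 the same fold change of 1.28 had a SE of 0.171 and an adjusted p of 0.000419 and was called, and over 20 alternatives the adjusted p ranged from 2.46e-07 to 0.371. Without that library Itgam fell by 8.75 on the log2 scale (SE 0.191) between LPS-MIC-1 and LPS.

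Itgb2, the shared beta subunit of the leukocyte integrins, was at 114, 115 and 112 FPKM in control, 94.2, 92.7 and 78.8 in LPS and 2.28, 0.714 and 3.15 under LPS-MIC-1. The LPS libraries lay below all control libraries, by a fitted difference that was not called (log2 fold change -0.36, SE 0.438, adjusted p = 0.505), and the LPS-MIC-1 libraries lay far below both. That standard error is shared by all 9 libraries and takes in the spread within LPS-MIC-1. Over 20 alternatives the adjusted p of Itgb2 for LPS against control ranged from 0.00523 to 0.693. Its log2 fold change in LPS-MIC-1 was -5.58 relative to LPS (SE 0.438, adjusted p = 4.86e-06) and -5.94 relative to control (adjusted p = 3.75e-06). Itgal, the alpha subunit of LFA-1, was low throughout, at 0.303 and 0.106 FPKM in control with replicate 1 listed at 0, at 1.36, 0.787 and 0.537 in LPS and at 0.124, 0.0112 and 0.0213 under LPS-MIC-1. Its LPS libraries were the highest and did not overlap the others. Itgal did not pass the filter, and in a fit without the filter its adjusted p was 0.00965 between LPS and control and 0.00196 between LPS-MIC-1 and LPS, both above the threshold. Itgam was the main partner of Itgb2 by level, with 96.8% ± 0.104 (SD, n = 3) of the summed FPKM of Itgal, Itgam, Itgax and Itgad in control and 98.8% ± 0.315 in LPS. The ratio of Itgam to Itgb2 was 0.541 ± 0.00360 in control and 1.69 ± 0.153 in LPS, and the 3 libraries of each group did not overlap.

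Itga4, the alpha subunit of the VCAM-1 receptor, was the most abundant of the 10 genes in control. It was at 322, 335 and 319 FPKM in control, 68.2, 70.8 and 71.2 in LPS and 3.70, 1.78 and 1.29 under LPS-MIC-1. The groups did not overlap and stood in the order control, LPS, LPS-MIC-1. Itga4 fell by 2.21 on the log2 scale between LPS and control (SE 0.310, adjusted p = 0.00035) and by 5.03 between LPS-MIC-1 and LPS (SE 0.310, adjusted p = 1.05e-06). Leaving out any one control or LPS library ended the call for LPS against control (adjusted p from 0.0019 to 0.00204), with a log2 fold change of -2.19 to -2.23. Without LPS-MIC-1 replicate 1, the spread shrank and the adjusted p of that comparison was 2.15e-06. Over 20 alternatives it ranged from 1.48e-07 to 0.00204. Itgb7, the other beta partner of Itga4, was at 5.24, 4.52 and 5.60 FPKM in control, 81.3, 82.1 and 78.4 in LPS and 46.1, 55.3 and 57.2 under LPS-MIC-1. Itga4 and Itgb7 thus differed in opposite directions between LPS and control (Itgb7 log2 fold change 3.96, SE 0.101, adjusted p = 5.51e-08). The ratio of Itga4 to Itgb7 was 64.2 ± 8.90 in control, 0.870 ± 0.0353 in LPS and 0.0451 ± 0.0310 under LPS-MIC-1 (SD, n = 3).

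Among the receptors for fibronectin and vitronectin, Itga5 was at 20.9, 20.9 and 19.2 FPKM in control, 117, 115 and 111 in LPS and 59.9, 69.8 and 60.3 under LPS-MIC-1. The groups did not overlap, and LPS was the highest. Itga5 rose by a log2 fold change of 2.48 (SE 0.0678, adjusted p = 6.23e-08) between LPS and control. It was higher in LPS-MIC-1 than in control as well, by 1.63 (adjusted p = 1.17e-07). The log2 fold change of LPS-MIC-1 relative to LPS was -0.85 (SE 0.0678, adjusted p = 5.27e-06), past the p threshold but not the fold threshold. With quantile normalization it was -1.10 and was called, and its adjusted p over 20 alternatives ranged from 2.5e-06 to 9.75e-05.

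Itgav was at 12.7, 11.9 and 11.9 FPKM in control, 43.8, 44.6 and 43.2 in LPS and 4.84, 4.82 and 4.08 under LPS-MIC-1. LPS was the highest group and LPS-MIC-1 the lowest, with no overlap. The log2 fold change was 1.85 (SE 0.0764, adjusted p = 4.58e-07) between LPS and control and -3.24 (SE 0.0764, adjusted p = 7.82e-09) in LPS-MIC-1 relative to LPS. Its partner Itgb3 was low, at 0.0798, 0.0702 and 0.0521 FPKM in control, 0.474, 0.474 and 0.523 in LPS and 2.66, 2.15 and 2.12 under LPS-MIC-1. These groups did not overlap either, but their order differed from that of Itgav, with LPS-MIC-1 the highest. Itgb3 did not pass the filter. In the fit without the filter it was called in each comparison, with log2 fold changes of 1.82 (adjusted p = 3.23e-05) in LPS relative to control and 2.02 (adjusted p = 6.31e-06) in LPS-MIC-1 relative to LPS. Another Itgav partner, Itgb5, was at 32.2, 30.9 and 30.3 FPKM in control, 17.4, 17.7 and 16.4 in LPS and 25.7, 23.2 and 25.3 under LPS-MIC-1, and was not called in any of the 3 comparisons.

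Itga7, the main laminin receptor alpha subunit of skeletal muscle, was at 1.11, 0.947 and 0.873 FPKM in control. In LPS it was at 3.76 and 4.27 in replicates 1 and 2 and listed at 0 in replicate 3, and under LPS-MIC-1 at 252, 235 and 273. Only the LPS-MIC-1 libraries were high, far above all 6 others. The log2 fold change was 7.73 (SE 1.28, adjusted p = 0.000546) in LPS-MIC-1 relative to LPS and 7.88 (SE 1.28, adjusted p = 0.000536) between LPS-MIC-1 and control. Both calls were lost without any one control or LPS-MIC-1 library (adjusted p from 0.00136 to 0.0027), with log2 fold changes that stayed between 7.68 and 7.97. Over 20 alternatives the adjusted p ranged from 4.81e-08 to 0.0044 against LPS and from 1.15e-08 to 0.00783 against control. The spread turned on the value listed at 0. Without LPS replicate 3, Itga7 was higher in LPS than in control by a log2 fold change of 1.94 (adjusted p = 2.13e-05), against 0.15 (SE 1.28, adjusted p = 0.938) with it.

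Itga6, the other laminin receptor, was at 0.699, 0.414 and 0.342 FPKM in control, 1.51, 1.02 and 0.715 in LPS and 3.71, 4.95 and 5.39 under LPS-MIC-1. The lowest LPS library lay just above the highest control library, and the LPS-MIC-1 libraries lay above all others. Between LPS and control the log2 fold change of 1.01 (SE 0.313) had an adjusted p of 0.0218 and was not called. Relative to LPS, the log2 fold change of LPS-MIC-1 was 2.05 (SE 0.313, adjusted p = 0.00032), and that call was lost without LPS replicate 2 or 3 or without LPS-MIC-1 replicate 2 or 3 (adjusted p from 0.00121 to 0.00171). Its adjusted p over 19 alternatives ranged from 4.93e-05 to 0.00171. Against control, Itga6 was higher in LPS-MIC-1 by 3.06 (SE 0.313, adjusted p = 2.93e-05).

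Itgb1, the beta subunit common to Itga4, Itga5, Itga6 and Itga7, differed little between control and LPS. It was at 38.6, 40.1 and 38.7 FPKM in control, 33.6, 32.9 and 32.8 in LPS and 161, 149 and 160.0 under LPS-MIC-1. The LPS libraries lay slightly below control without overlap (log2 fold change -0.24, SE 0.0417, adjusted p = 0.00125, not called), and the LPS-MIC-1 libraries lay far above both. Itgb1 rose by 2.24 on the log2 scale between LPS-MIC-1 and LPS (SE 0.0417, adjusted p = 3.99e-09) and by 2.00 between LPS-MIC-1 and control (SE 0.0417, adjusted p = 4.17e-09).

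The order of levels differed between the C2C12 groups. In control it ran Itga4, Itgb2, Itgam, Itgb1, Itga5, Itgav, Itga7, Itga6, Itgal and Itgb3 by mean FPKM, and the ranges over 3 libraries overlapped only for the neighbours Itgal and Itgb3. In LPS it ran Itgam, Itga5, Itgb2, Itga4, Itgav, Itgb1, Itga7, Itga6, Itgal and Itgb3, with overlap between Itga7 and Itga6 and between Itga6 and Itgal. In LPS-MIC-1 Itga7, Itgb1 and Itga5 led, followed by Itga6, Itgav, Itgb3, Itga4, Itgb2, Itgam and Itgal. There, Itga6 overlapped Itgav, and the neighbours from Itgb3 to Itgam overlapped each other. The FPKM of all genes summed to 547475 to 552373 in the control libraries, 687390 to 701659 in LPS and 667207 to 797734 under LPS-MIC-1. The summed FPKM of the 10 genes, not scaled to these unequal totals, was 574 ± 12.5 in control, 504 ± 15.8 in LPS and 491 ± 20.5 under LPS-MIC-1 (SD, n = 3). Itga4 made up 56.7% ± 0.348 of that sum in control and 13.9% ± 0.705 in LPS, whereas in LPS-MIC-1 Itga7 made up 51.6% ± 1.79 and Itgb1 31.9% ± 0.549. For each unit of Itgb1, Itga4 stood at 8.32 ± 0.0658 in control, 2.12 ± 0.0767 in LPS and 0.0144 ± 0.00779 under LPS-MIC-1. Itga7 stood at 0.0250 ± 0.00334 in control and 1.62 ± 0.0771 in LPS-MIC-1 on the same scale.

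**Figure D2:**
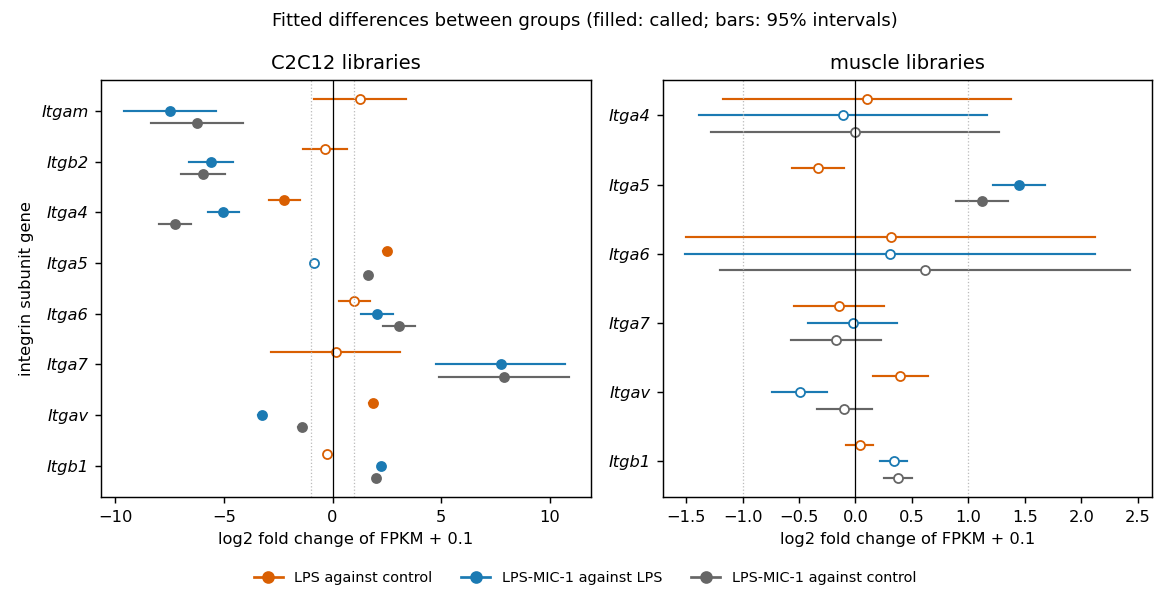
Fitted log2 fold changes of FPKM + 0.1 for the integrin genes tested, 8 in C2C12 (left) and 6 in muscle (right), with 95% intervals as bars (hidden behind the point where narrow) filled points where the gene was called and dotted lines at a log2 fold change of 1 either way. In muscle only Itga5 is filled, at 1.45 and 1.12, whereas the C2C12 panel spans -7.49 to 7.88.

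In muscle, 6 of the 10 genes passed the filter (all but Itgam, Itgal, Itgb2 and Itgb3). For LPS against control, 0 of the 6 were called by limma, against 1.25% of all 9475 genes tested (0.654% higher and 0.591% lower). An unadjusted threshold of 0.05 was passed by 2 of the 6 in limma, Itga5 and Itgav, both short of the fold threshold, beside 29.6% of all genes. In LPS-MIC-1 compared with LPS, 1 of the 6 was called (Itga5, higher), against 15.1% of all genes (9.67% higher and 5.44% lower). Compared with control, Itga5 was again the 1 gene called, against 15.5% of all genes (9.33% higher and 6.12% lower). By adjusted p alone, 1, 3 and 2 of the 6 passed, against 15.7%, 56.5% and 58.5% of all genes. The groups did not overlap for 2, 3 and 2 of the 6, against 36.5%, 64.2% and 64.6%. Without the filter, 0, 2 and 2 of the 10 were called, against 1.12%, 14% and 14.5% of 15434 genes. These 3 comparisons also share libraries. The median log2 fold change of the 6 genes was 0.070, 0.14 and 0.19 in that order, beside 0.0055, -0.0090 and 0.0095 over all genes tested. In bulk tissue, fewer cells of a type and less RNA per cell cannot be told apart. With 3 libraries against 3, the smallest p that an exact 2-sided permutation test of a single gene can give is 0.1. Groups that do not overlap always give this p, so the test adds nothing to the overlap.

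**Figure D3:**
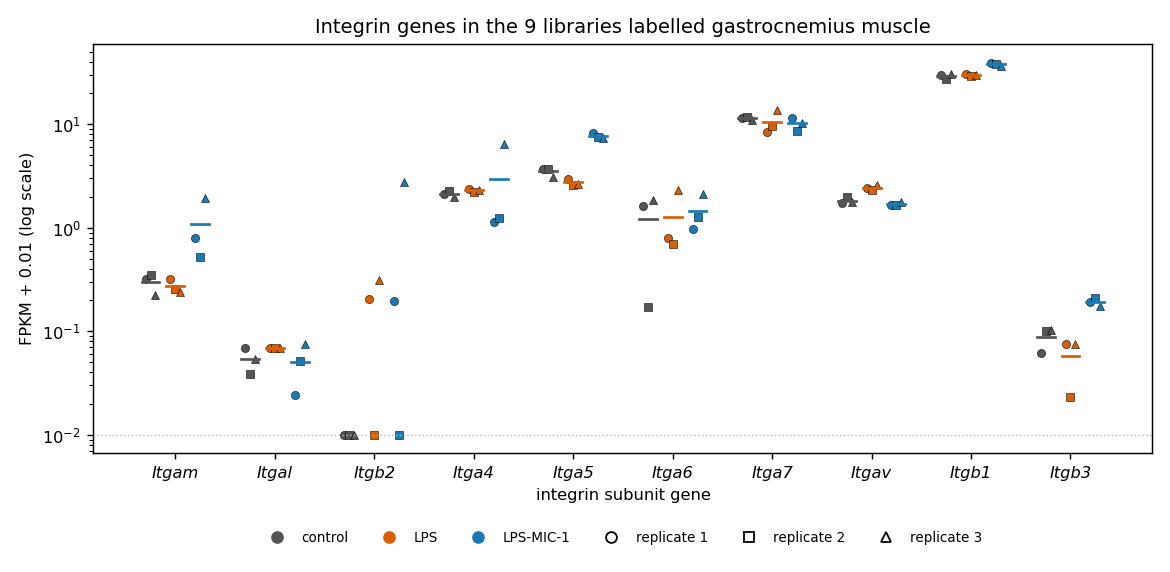
FPKM + 0.01 on a log scale for the 10 integrin genes in the 9 muscle libraries, drawn as for C2C12, with the dotted line at a listed 0. Itgb1 and Itga7 are the most abundant in every group, Itga5 is raised in all 3 LPS-MIC-1 libraries, and LPS-MIC-1 replicate 3 (triangles) stands above its companions for Itgam, Itgb2 and Itga4.

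Itga5 was at 3.69, 3.73 and 3.06 FPKM in muscle control, 2.96, 2.60 and 2.66 in LPS and 8.25, 7.47 and 7.29 under LPS-MIC-1. All 3 LPS-MIC-1 libraries were high, and the LPS libraries lay just below the control libraries. Itga5 rose by a log2 fold change of 1.45 (SE 0.1003, adjusted p = 5.66e-06) in LPS-MIC-1 relative to LPS and of 1.12 (SE 0.1003, adjusted p = 2.62e-05) between LPS-MIC-1 and control. The difference of -0.34 between LPS and control (SE 0.1003, adjusted p = 0.058) did not pass. Without LPS-MIC-1 replicate 3 the fold changes of LPS-MIC-1 were 1.49 and 1.15, so the rise was as large in the other 2 libraries. Against control the fold change was 0.95 with a pseudocount of 1 and 0.98 with quantile normalization, short of the fold threshold. The 8 endothelial markers, from cells that also carry Itga5, summed to 107 to 111 FPKM over the control libraries, 70.3 to 72.6 over the LPS libraries and 90.7 to 102 under LPS-MIC-1. These groups did not overlap, and LPS was the lowest as for Itga5, but LPS-MIC-1 lay below control. The part of endothelial cells in the Itga5 values was not tested.

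Itgb1, the most abundant of the 10 genes in muscle, was at 29.9, 27.3 and 30.6 FPKM in control, 30.8, 29.5 and 29.7 in LPS and 39.4, 38.2 and 36.4 under LPS-MIC-1. Control and LPS overlapped and LPS-MIC-1 lay above both. The difference was small, with a log2 fold change of 0.34 (SE 0.0526, adjusted p = 0.000693) against LPS and 0.38 (SE 0.0526, adjusted p = 0.000373) against control, past the p threshold and short of the fold threshold.

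Itga7 was at 11.4, 11.8 and 11.04 FPKM in control, 8.37, 9.53 and 13.6 in LPS and 11.5, 8.64 and 10.4 under LPS-MIC-1. The 3 groups overlapped, and none of its fold changes was called. The interval of the log2 fold change was -0.42 to 0.37 between LPS-MIC-1 and LPS and -0.55 to 0.25 between LPS and control, which leaves out a change of 1 in either direction. Itga6 was at 1.60, 0.163 and 1.86 FPKM in control, 0.787, 0.687 and 2.29 in LPS and 0.953, 1.26 and 2.12 under LPS-MIC-1. These groups overlapped as well, control replicate 2 was the lowest library, and the interval of the log2 fold change between LPS and control was wide, from -1.50 to 2.13.

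Itgav was at 1.72, 1.97 and 1.78 FPKM in control, 2.39, 2.32 and 2.57 in LPS and 1.64, 1.66 and 1.77 under LPS-MIC-1. The LPS libraries lay above the 6 others. The log2 fold change was 0.40 (SE 0.106, adjusted p = 0.0391) between LPS and control and -0.50 (SE 0.106, adjusted p = 0.0041) in LPS-MIC-1 relative to LPS, both short of the fold threshold. The adjusted p of the first ranged from 0.00866 to 0.125 over 19 alternatives. Itga4 was at 2.11, 2.27 and 1.98 FPKM in control, 2.35, 2.18 and 2.32 in LPS and 1.13, 1.24 and 6.42 under LPS-MIC-1. Replicate 3 was the highest of the 9 libraries and the other 2 LPS-MIC-1 libraries were the lowest. The log2 fold change between LPS-MIC-1 and LPS was -0.11 (SE 0.555, adjusted p = 0.883) with replicate 3 and -0.89 (SE 0.125, adjusted p = 0.000813) without it, in neither case past the fold threshold. Over 19 alternatives its adjusted p ranged from 0.000813 to 0.999.

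The 3 beta2 leukocyte genes were near the floor of the muscle table. Itgb2 was listed at 0 in all 3 control libraries, at 0.193 and 0.301 FPKM in LPS with replicate 2 listed at 0, and at 0.188 and 2.78 in LPS-MIC-1 with replicate 2 again listed at 0. The groups overlapped, and LPS-MIC-1 replicate 3 alone was above 0.301. The authors' base mean of Itgb2, normalized counts averaged over the 6 libraries compared, was 18.6 for LPS-MIC-1 with control and 21.6 for LPS-MIC-1 with LPS, so few reads stood behind these values. Itgal was at 0.0583, 0.0290 and 0.0441 FPKM in control, 0.0588, 0.0590 and 0.0584 in LPS and 0.0143, 0.0416 and 0.0657 under LPS-MIC-1, with base means of 2.97 and 3.49. The LPS libraries lay just above the control libraries without overlap, and LPS-MIC-1 overlapped both. In the fit without the filter, the log2 fold change of Itgal between LPS and control was 0.15 (SE 0.178, adjusted p = 0.702), and none of its 3 comparisons was called. Itgam was at 0.310, 0.341 and 0.214 FPKM in control, 0.313, 0.248 and 0.229 in LPS and 0.787, 0.512 and 1.93 under LPS-MIC-1. Control and LPS overlapped, and all 3 LPS-MIC-1 libraries lay above them. In the fit without the filter, Itgam had a log2 fold change of 1.51 (SE 0.413, adjusted p = 0.019) in LPS-MIC-1 relative to LPS and of 1.42 (adjusted p = 0.0237) between LPS-MIC-1 and control, both called. Without LPS-MIC-1 replicate 3 these were 1.03 (adjusted p = 0.0219) and 0.94 (adjusted p = 0.0294), and the second was no longer called.

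Itgb3 was at 0.0523, 0.0911 and 0.0922 FPKM in control, 0.0660, 0.0132 and 0.0655 in LPS and 0.1801, 0.199 and 0.165 under LPS-MIC-1. The LPS-MIC-1 libraries lay above all others. In the fit without the filter its log2 fold change was 0.94 (SE 0.208, adjusted p = 0.00692) against LPS and 0.66 (adjusted p = 0.033) against control, short of the fold threshold, and its base means were 8.99 and 10.2. The order of levels in muscle was led by Itgb1, Itga7 and Itga5 in each group, each separate from the next. Below them, Itga4, Itgav and Itga6 stood in an order that changed between groups, followed by Itgam, with overlap between 2 of the 3 neighbouring pairs in control and LPS and all 3 in LPS-MIC-1. For each unit of Itgb1, Itga7 stood at 0.392 ± 0.0365 in control, 0.351 ± 0.0973 in LPS and 0.268 ± 0.0357 under LPS-MIC-1 (SD, n = 3). Itga5 stood at 0.120 ± 0.0184, 0.0913 ± 0.00412 and 0.202 ± 0.00675 on the same scale.

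**Figure D4:**
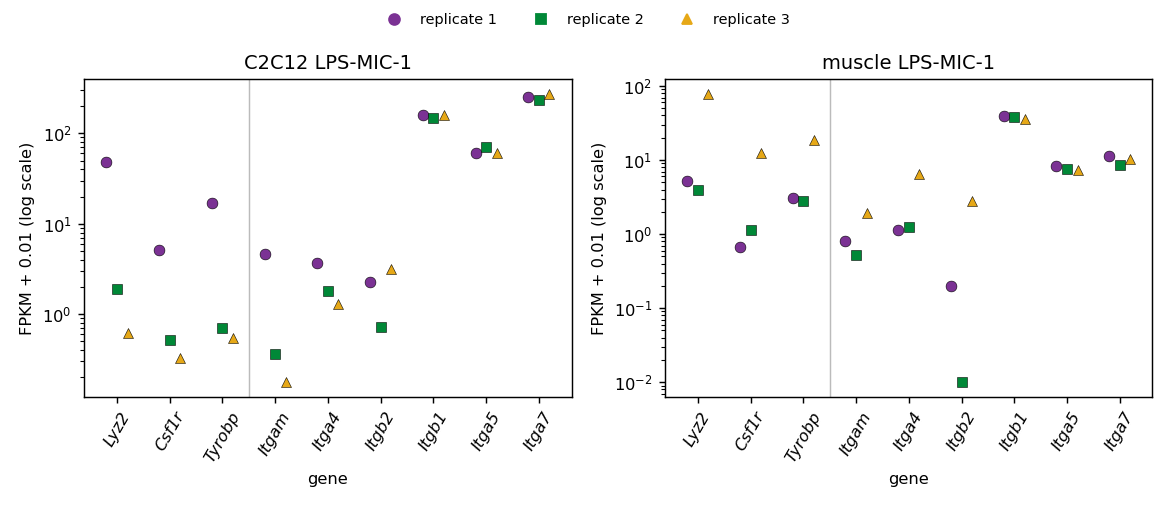
FPKM + 0.01 on a log scale in the 3 LPS-MIC-1 libraries of C2C12 (left) and muscle (right), with macrophage markers left of the grey line and integrin genes right of it. C2C12 replicate 1 and muscle replicate 3 stand above their companions for Lyz2, Csf1r, Tyrobp, Itgam and Itga4, whereas Itgb1, Itga5 and Itga7 lie close together.

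The 2 libraries that stood apart did so for Itgam and Itga4 as well as for macrophage markers. In C2C12 LPS-MIC-1, Lyz2 was at 48.8 FPKM in replicate 1 and at 1.87 and 0.616 in replicates 2 and 3. In muscle LPS-MIC-1, Lyz2 was at 5.27 and 3.93 FPKM in replicates 1 and 2 and at 78.3 in replicate 3, and the summed macrophage markers were at 20.4 to 159 FPKM, compared with 17.1 to 26.5 in control and LPS. The 9 neutrophil markers that were matched summed to 1.76 to 2.74 FPKM in muscle control, 1.76 to 2.02 in LPS and 14.9 to 19.9 under LPS-MIC-1, so they were higher in all 3 LPS-MIC-1 libraries, as Itgam was. The neutrophil marker S100a8 was at 7.25, 7.47 and 7.41 FPKM in LPS-MIC-1 and at most 0.739 in the 6 other libraries. S100a9 was listed at 0 in LPS-MIC-1 replicate 1, at 6.65 and 4.79 in the other 2 and at most 0.220 elsewhere. In muscle LPS-MIC-1 replicate 3, the excess over its companions was 1.61%, 2.08% and 2.36% of the C2C12 control mean for Itga4, Itgam and Itgb2. It was 1.57% for Lyz2, with a median of 1.65% over 28 genes high in that group and nearly absent from the companions. In C2C12 LPS-MIC-1 replicate 1, the excess was 3.09%, 2.93% and 0.386% of the C2C12 LPS mean for the same genes, and 2.58% for Lyz2. The median over 51 such genes was 2.74%. The source of these excesses and the part of macrophages or neutrophils in the integrin values were not tested.

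**Figure D5:**
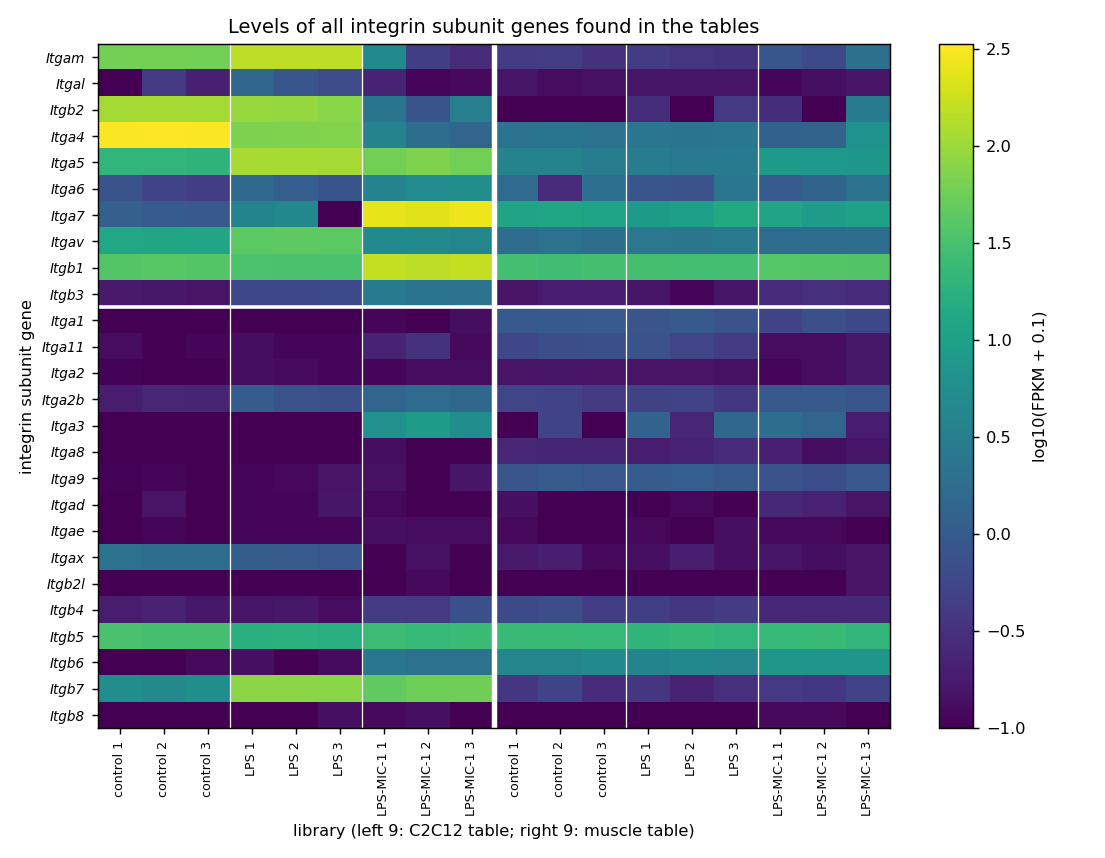
Levels as log10(FPKM + 0.1) of the 10 integrin genes (above the horizontal white line) and of 16 other integrin subunit genes (below it) in the 18 libraries, with C2C12 on the left of the thick vertical line and muscle on the right. Itgb5 is seen in every library, Itgb7 exceeds 1 FPKM in C2C12 libraries only, and Itga3 and Itgb6 appear in C2C12 LPS-MIC-1.

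Of 17 other integrin subunit genes, 16 were matched and most were near 0. In C2C12, 3 passed the filter (Itga3, Itgb5 and Itgb7), and 1 of these 3 was called in LPS against control (Itgb7, higher) and 1 in LPS-MIC-1 against LPS (Itga3, higher), beside 20.9% and 49.9% of all genes. Itga3 passed the filter through its level in LPS-MIC-1 alone, so its call follows from the filter. Itga3, a laminin receptor subunit, was listed at 0 in all 6 control and LPS libraries and was at 5.94, 8.72 and 5.19 FPKM in LPS-MIC-1. Itgb6, an Itgav partner of epithelia, was at 2.30, 1.95 and 1.96 FPKM in C2C12 LPS-MIC-1 and at most 0.0385 in the 6 other C2C12 libraries. In muscle it was at 3.93, 4.08 and 4.58 FPKM in control, 3.75, 4.34 and 3.88 in LPS and 7.18, 6.999 and 6.71 under LPS-MIC-1, where the log2 fold change against LPS of 0.79 (SE 0.0840, adjusted p = 7.59e-05) was short of the fold threshold. The minor Itgb2 partner Itgax was at 2.04, 1.72 and 1.78 FPKM in C2C12 control, 1.01, 0.920 and 0.793 in LPS and at most 0.0440 under LPS-MIC-1.

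Of 37 matched genes for proteins that activate integrins or link them to actin, 31 were tested in C2C12. Between LPS and control 11 of the 31 were called, 9 higher and 2 lower, against 20.9% of all genes. The adaptor Lims2 (log2 fold change 5.50) went from 1.93, 1.87 and 2.11 FPKM in control to 92.2, 94.2 and 94.5 in LPS, and the tyrosine kinase Src (5.15) from 1.83, 1.91 and 1.98 to 73.0, 71.4 and 69.7. The kindlin Fermt2 (3.50) was next, at 0.0326 to 0.0806 FPKM in control and 1.66 to 1.72 in LPS. In LPS-MIC-1 relative to LPS 20 were called, 8 higher and 12 lower, against 49.9% of all genes. The largest differences were in the focal adhesion protein Parva (7.96), the 1 gene of the 31 with mean levels under 1 FPKM in both control and LPS, at 30.1, 28.4 and 34.9 FPKM in LPS-MIC-1 and at most 0.0965 in LPS, and in the kindlin of blood cells Fermt3 (-7.51). Fermt3 was at 54.9, 51.6 and 56.3 FPKM in LPS, but under LPS-MIC-1 it was listed at 0 in replicate 1 and at 0.423 and 0.402 in the others. Thus the leukocyte form Fermt3 was lower in LPS-MIC-1 together with Itgam and Itgb2, and Fermt2 (3.29) was higher together with Itga7 and Itgb1.

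In muscle, 26 of these linker genes were tested and 0 were called between LPS and control by limma, beside 1.25% of all genes. An unadjusted threshold of 0.05 was passed by 13 of the 26, compared with 29.6% of all 9475 genes. In LPS-MIC-1 relative to LPS 3 of the 26 were called, 1 higher and 2 lower, beside 15.1% of all genes. Itgb1bp3, whose product binds the cytoplasmic tail of Itgb1 and is also known as Nmrk2, a kinase of nicotinamide riboside, had the largest change. It was at 223, 222 and 235 FPKM in control, 393, 402 and 405 in LPS and 13.2, 16.1 and 14.5 under LPS-MIC-1. The last differed from LPS by a log2 fold change of -4.77 (SE 0.0638, adjusted p = 6.54e-10). The LPS libraries were the highest and the LPS-MIC-1 libraries the lowest, with no overlap. Rasgrp2, an activator of Rap1 in platelets and leukocytes, followed at -1.66 (SE 0.106, adjusted p = 3.64e-06), and the tensin Tns1 at 1.28 (SE 0.465, adjusted p = 0.0438). The call of Tns1 was lost without LPS-MIC-1 replicate 3, where 0 genes were called higher and 2 lower.

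Of 28 integrin ligand genes, all matched, 16 were tested in C2C12. Between LPS and control 4 of the 16 were called, 3 higher and 1 lower, against 20.9% of all genes tested, led by thrombospondin Thbs1, the Itgb2 ligand Icam2 (log2 fold change -2.44) and the laminin chain Lamc1 (1.67). Thbs1 was listed at 0 in the 3 control libraries and was at 0.312, 0.458 and 1.06 FPKM in LPS. Of the 16, 14 were called in LPS-MIC-1 relative to LPS, 10 higher and 4 lower, against 49.9% of all genes. However, 9 of the 16, among them Thbs1, Cyr61, Lamb1 and Vcam1, had mean levels under 1 FPKM in both control and LPS and passed the filter through LPS-MIC-1, and all 9 were among those called higher, so the count is a description. Of the other 7 genes, 1 was called higher and 4 lower. Highest were Cyr61 (9.32), at 160.5, 163 and 167 FPKM in LPS-MIC-1 and 0.0645 to 0.417 in LPS, the laminin chain Lamb1 (8.94) and the Itga4 ligand Vcam1 (8.53). Vcam1 was at 40.1, 36.4 and 46.9 FPKM in LPS-MIC-1, the libraries in which Itga4 was lowest, and was listed at 0 in 5 of the 6 others. These ligand counts were 5 and 13 of 14 tested without LPS-MIC-1 replicate 1.

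Of the ligand genes, 15 were tested in muscle. Cyr61, a matricellular protein that binds Itgav and Itgam receptors, was the 1 of the 15 called between LPS and control, beside 1.25% of all genes. It was at 13.5, 14.4 and 13.1 FPKM in control, 5.60, 6.07 and 6.12 in LPS and 54.4, 52.4 and 51.6 under LPS-MIC-1. Each group was separate from the others, with log2 fold changes of -1.19 (SE 0.0544, adjusted p = 6.74e-06) between LPS and control and 3.13 (SE 0.0544, adjusted p = 2.1e-09) in LPS-MIC-1 relative to LPS. In LPS-MIC-1 relative to LPS 5 of the 15 ligand genes were called, 4 higher and 1 lower, beside 15.1% of all genes (9.67% higher and 5.44% lower). One of those called higher, Icam1, was at most 1.06 FPKM in control and LPS and passed the filter mainly through LPS-MIC-1. The count is therefore a description, and such genes were not counted in muscle. Osteopontin (Spp1) had the largest log2 fold change, 4.09 (SE 1.18, adjusted p = 0.0177). It was at 3.30, 3.32 and 21.5 FPKM in LPS-MIC-1, and at 0.479 and 0.782 in LPS with replicate 3 listed at 0. The high value of LPS-MIC-1 replicate 3 and the listed 0 both enlarge this fold change, which is not given here without LPS-MIC-1 replicate 3. The Itgb2 ligand Icam1 was at 0.855, 1.06 and 0.921 FPKM in control, 0.708, 0.927 and 0.612 in LPS and 7.54, 6.93 and 5.99 under LPS-MIC-1, so all 3 LPS-MIC-1 libraries were high (log2 fold change 3.04, SE 0.173, adjusted p = 1.78e-06). Without LPS-MIC-1 replicate 3, 4 ligand genes were called, 3 higher and 1 lower.

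Across the 9 C2C12 libraries, the genes whose log2(FPKM + 0.1) was most like that of Itgb2 were Dock11, Tbc1d22a and Ifitm6, with Pearson r of 0.999, 0.998 and 0.998, and 1122 of the genes tested had r over 0.95. For Itga7 they were H2-Q9 (0.984), Smpd2 (0.979) and Bcl2l12 (0.973), with 19 genes over 0.95. In muscle the nearest to Itga7 were Dkc1 (0.906), Mcts2 (0.897) and Cnrip1 (0.870), and 0 genes were over 0.95. The 9 libraries of a table fall into 3 groups, and the single Itga7 value listed at 0 carries weight in the C2C12 likeness, so these values describe the table.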

How the data were processed

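RNA-seq was analysed from 18 libraries, 9 labelled C2C12 and 9 labelled gastrocnemius, grouped by the sample labels into control, LPS and LPS-MIC-1 (3 libraries each). The authors used kallisto and tximport and deposited an FPKM value for each gene in each library. The genome build mm9 is the build in the submitters' processing notes. The muscle table had 11 further unnamed columns, 9 with per-sample values, which were not used. The DESeq2 fold changes and p-values deposited by the authors were not used. The base means deposited by the authors, a signal made by dividing counts by size factors and averaging 6 libraries, served only to judge depth. The DESeq2 table of muscle control and LPS was not used. Reads per library are unknown, so no counting interval was given.

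Each table was fitted apart on log2(FPKM + 0.1) with limma 3.58.1 in R 4.3.3 (group means, eBayes with trend, all 9 libraries), for genes with a mean FPKM over 1. Thresholds follow the study's methods, with the Benjamini-Hochberg adjustment taken over every gene tested. A low FPKM shrinks the fold change on this scale. The steps were tested on simulated data. Figures used matplotlib 3.10.9.

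All 10 integrin genes were described. Of the other subunit, linker and ligand lists, the 3 called genes with the largest change per comparison were named, with Itgb2 partners, the 3 genes most like Itgb2 and Itga7, and abundant markers. One gene that this rule names is not reported here. Itgb5, Itgb6, Csf1r, Myod1, S100a8, S100a9 and Fermt2 in LPS-MIC-1 were chosen after their values were seen. Members and lists were chosen with earlier results of these data known. Alternatives were a replicate block, fits of only 6 libraries, omission of each library, pseudocounts of 1 and 0.01, and quantile normalization or median-ratio scaling. Others were a filter at a mean FPKM over 5, a fit without the filter, eBayes with no trend, and calls by unadjusted p or by adjusted p alone. The fit without the filter still required a value above 0 in at least 3 libraries. The fits without the filter and without 1 library that stood apart were chosen after seeing the data.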

Additional observations from a re-analysis of the deposited data

Results flagged for a closer look

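In 4 cases every library of the compared groups lay on one side in C2C12 and on the opposite side in muscle. The difference between the 2 experiments was not tested, since their tables were normalized separately, and the C2C12 groups differ in cell identity. Itga5 had a log2 fold change of 2.48 in C2C12 and -0.34 in muscle between LPS and control, and of -0.85 in C2C12 and 1.45 in muscle between LPS-MIC-1 and LPS. Itgam had a log2 fold change of -7.49 in C2C12 and 1.51 in muscle between LPS-MIC-1 and LPS, and of -6.21 and 1.42 between LPS-MIC-1 and control, where the muscle values come from the fit without the filter. The muscle values of Itgam were 1.03 and 0.94 without LPS-MIC-1 replicate 3.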

How the results depend on the processing

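In C2C12 the counts of integrin genes called moved by at most 1.5 times under the alternatives named in the processing. Without the filter and without LPS-MIC-1 replicate 1 (chosen after seeing the data), 5 were called between LPS and control. In muscle, counts for LPS-MIC-1 against control were 0 with a pseudocount of 1 and with quantile normalization, which shifted the median of all genes by -0.12 and gave 781 genes higher and 667 lower for LPS-MIC-1 relative to LPS (916 and 515 as reported). With a mean FPKM over 5, where Itga5 was not tested, they were 0 and 0 for LPS-MIC-1 against LPS and control, and without the filter 2 and 2. Without the filter and without LPS-MIC-1 replicate 3, 2 were called against LPS. By adjusted p alone 1, 3 and 2 were called in LPS against control, LPS-MIC-1 against LPS and LPS-MIC-1 against control. Leaving out 1 library each, the counts ranged from 3 to 4, 5 to 8 and 6 to 9 in C2C12 and were 0, 1 and 1 in muscle. The C2C12 counts held different genes, since without any one control or LPS library Itgb3 passed the filter as well (9 genes tested) and was called in each comparison, whereas Itga4 was no longer called between LPS and control.

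Signs turned only for values that were not called. Itga7 in C2C12 LPS against control was -0.85 with a pseudocount of 0.01, -0.085 with quantile normalization, and ranged from -0.79 to 1.94 over the left-out libraries (-0.70 without LPS replicate 1). In muscle, Itga4 was 0.00068 against LPS and 0.075 against control with a pseudocount of 1, and Itgb1 in LPS against control was -0.0052 with quantile normalization. Over the left-out muscle libraries, Itga6 ranged from -0.62 to 0.83 (-0.20 without LPS replicate 3) and Itgb1 from -0.013 to 0.069 in LPS against control. For LPS-MIC-1 relative to LPS, Itga4 ranged from -0.89 to 0.31 (0.25 without LPS-MIC-1 replicate 2) and Itga7 from -0.17 to 0.18 (0.085 without LPS-MIC-1 replicate 2). Relative to control, Itga4 ranged from -0.79 to 0.42 (0.042 without control replicate 2 and 0.35 without LPS-MIC-1 replicate 2) and Itga6 from -0.31 to 1.14. The cause was not tested.

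Same-numbered replicates did not deviate together (r from -0.076 to 0.057 in C2C12 and from -0.054 to 0.082 in muscle). The labels do not say whether the numbers pair the libraries, and this check cannot tell. With a replicate block, 2, 5 and 7 integrin genes were called in C2C12 and 0, 1 and 1 in muscle, and Itga4 (adjusted p = 0.00116) between LPS and control, Itga6 (0.00111) and Itga7 (0.00124) between LPS-MIC-1 and LPS, and Itga7 (0.00125) between LPS-MIC-1 and control no longer passed 0.001. The muscle values of Itgal, Itgb3 and Itgb2 rest on few reads, with authors' base means from 2.97 to 21.6. In C2C12, Itga6 had a base mean of 84.9 over control and LPS, at mean levels of 0.485 and 1.08 FPKM.

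Over all genes, adjusted p alone called 4115 instead of 2275 in C2C12 LPS against control. In muscle, LPS against control gave 118 genes as reported, 71 with a pseudocount of 1, 57 with a mean FPKM over 5, 185 by unadjusted p, 1491 by adjusted p alone and 181 without the filter and LPS-MIC-1 replicate 3. Relative to LPS and to control, the 1431 and 1464 genes of LPS-MIC-1 became 2158 and 2240 without the filter, 656 and 677 with a mean FPKM over 5, and 5356 and 5544 by adjusted p alone, and 2216 relative to control without the filter and replicate 3.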
